A study of Saccharomyces cerevisiae with 21 samples.

Results

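Ribosome-protected fragments (RPFs) of yeast in stationary phase were compared with RPFs of yeast at the postdiauxic shift, gene by gene, in the number of reads and in their polarity along the gene. The comparison used 2 of the 21 samples of the series, chosen by their growth time, and the 11 ribosome profiling samples were deposited as 19 sheets with 1 library each. Both libraries came from BY4741, a laboratory strain of haploid a cells with the genotype MATa his3Δ1 leu2Δ0 met15Δ0 ura3Δ0, labelled wild-type, in batch culture in YPD, a rich medium with glucose. One culture was collected after 1 day of growth, called day 1 here (postdiauxic shift), and the other after 5 days, called day 5 here (stationary phase). Cells of both were filtered and flash frozen without cycloheximide, the drug that halts ribosomes on the mRNA, and rRNA was removed with RiboZero. Another library, from the same strain in YPD at log phase, is given as a reference level. There was 1 library per condition, so no difference had a replicate check, no test across genes was possible, and intervals of ratios cover counting error only.

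Yeast with glucose ferment it to ethanol. When glucose runs out, at the diauxic shift, the cells turn to respiring the ethanol and acetate they made, through the glyoxylate cycle, gluconeogenesis, the TCA cycle and the mitochondrial respiratory chain. When these are spent too the culture stops dividing and enters stationary phase, a resting state known for resistance to heat and oxidants, for autophagy and for a low rate of protein synthesis. RPF counts give the share of a library's ribosomes found on a gene's mRNA. They reflect both the amount of the mRNA and the ribosomes on each copy, which were not separated here. The series also holds RNA samples of both days, which were not used. Polarity gives their position, with negative scores for reads in the 5′ part and positive scores for reads in the 3′ part of the gene, between -1 and 1.

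The libraries held 652361 gene reads in log phase, 575896 on day 1 and 169545 on day 5, with 5145, 5363 and 4860 genes listed. No spike-in was used, so every count is a share of its library, and fewer ribosomes in all on day 5 cannot be told apart from an unchanged number. A level of 20 CPM (counts per 1000000 gene reads) was 11.5 reads on day 1 but 3.39 reads on day 5. The same number of reads was thus a 3.4-fold larger share of the library on day 5 than on day 1. The strain's markers mostly went with its genotype, though on day 5 they rest on few reads. Of the 4 genes deleted in BY4741, MET17 and URA3 were not listed. LEU2 had 0, 2 and 0 reads in log phase, on day 1 and on day 5, and HIS3, of which his3Δ1 removes a part, had 43, 9 and 2. The receptor gene STE2 of a cells held 408, 26 and 13 reads, or 625, 45.1 and 76.7 CPM. STE3, its counterpart in α cells, held 5, 0 and 1 reads. SAG1, also of the α list, went the other way with 2, 6 and 11. All listed genes of a cells held 1054, 354 and 53 reads, and those of α cells 25, 14 and 16. Genes of meiosis and sporulation took 0.00504% of reads on day 1 and 0.0307% on day 5, and IME1, the master regulator of meiosis, gave 6 of 29 of these reads on day 1 and 35 of 52 on day 5. A resting culture has few dividing cells, and the cyclin gene CLN1 held 59, 57 and 3 reads, or 90.4, 99.0 and 17.7 CPM. The cyclin gene CLB2, of later phases, held 99, 489 and 332 reads. Scaled to library size CLB2 was higher on day 5, with 152, 849 and 1958 CPM.

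Of 3915 genes with a mean of at least 20 CPM over the 2 libraries, 488 (12.5%) were at least 2-fold higher on day 5 and 1353 (34.6%) at least 2-fold lower. With the requirement that the counting interval lay on 1 side of no difference, these were 409 (10.4%) and 1048 (26.8%). At least 4-fold differences had 161 genes higher and 467 lower. The median gene stood at -0.51 on the log2 scale (ratio of CPM with 1 CPM added to each). Leaving the 20 genes with the most reads in either library out of the library size moved it to -0.34. Of all genes past 2-fold, 26.5% were higher. Scaled by TMM, which centres the bulk of genes, the median moved by 0.45 to -0.06, 783 genes were higher and 847 lower, and the share of higher ones was 48.0%, against 49.4% with median of ratios scaling. List medians below are therefore to be read against -0.51, the median of all genes. Counts of list members are to be read against 12.5% higher and 34.6% lower. As a yardstick, replicate libraries of the starvation time course of this series, of another medium and unequal depth, had 11.8% to 16.1% of genes past 2-fold in either direction, against 47.0% here. At a mean of 100 CPM or more they had 3.41% to 4.77%, against 45.3% here.

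Genes named for stationary phase led the list of higher genes. SNZ1 (YMR096W), a gene of vitamin B6 synthesis, had 2, 5 and 243 reads in log phase, on day 1 and on day 5, or 3.07, 8.68 and 1433 CPM. It was 165-fold higher on day 5 than on day 1 (95% interval 69.8 to 513). SPG1 (YGR236C, chromosome VII, 962530 to 962817), needed for survival in stationary phase, went from no read in log phase to 217 CPM on day 1 and 12038 CPM on day 5, a ratio of 55.5 (46.3 to 67.0). With 2041 reads it was among the 10 genes with the most reads on day 5. SPG4 (YMR107W), named with it, had 0, 375 and 5993 CPM, a ratio of 16 (13.8 to 18.6). SPG5, a regulator of proteasome assembly, had 30.7, 594 and 3374 CPM. All 4 were highest on day 5, and SNZ1, SPG1 and SPG4 had at most 2 reads in log phase. Of the 12 largest differences upward among genes with at least 200 reads in the 2 libraries together, 11 had at most 15 reads in log phase. Of the 12 largest downward, 1 did. The median over all genes listed in log phase was 29 reads.

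Of 17 stationary phase genes compared, 10 were at least 2-fold higher and 2 lower, with a median of 1.24 against -0.51 for all genes. YGP1, a secreted glycoprotein gene induced when nutrients run short, was among the 2 lower ones, with 49.1, 2240 and 602 CPM. RIM15, a kinase gene for entry into stationary phase, was the other, with 22, 103 and 10 reads. The ubiquitin gene UBI4 went from 870 to 1410 CPM, a ratio of 1.62 (1.38 to 1.89).

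The general stress response had 24 of 37 genes at least 2-fold higher and 2 lower, a median of 1.37, and went from 1.72% to 5.35% of all reads. GRE1, a hydrophilin gene induced by water loss, had 0, 270 and 921 reads, a ratio of 11.6 (10.1 to 13.3). SIP18, a phospholipid-binding hydrophilin, had 1, 42 and 295 reads, a ratio of 23.9 (17.2 to 33.8). FMP16, whose product is found with mitochondria, had 0, 45 and 192 reads. TMA10, whose protein is found with ribosomes, was the highest of the list on day 5, with 10.7, 1629 and 9089 CPM. DDR2, a small multistress gene, had 3, 531 and 924 reads, or 922 and 5450 CPM on days 1 and 5. ALD3, a cytosolic aldehyde dehydrogenase gene, had only 3 reads on day 1 and 42 on day 5, a ratio of 47.6 (15.2 to 240). Outside this list, FMP45, a membrane protein of the cell cortex and a member of the stationary phase list, had 1, 133 and 470 reads. NCE102, which organizes membrane domains called eisosomes and was in no list, had 641, 2339 and 28022 CPM, a ratio of 12 (11.3 to 12.7). NCE102 was second only to the fermentation gene PDC1 in reads on day 5.

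**Figure D1:**
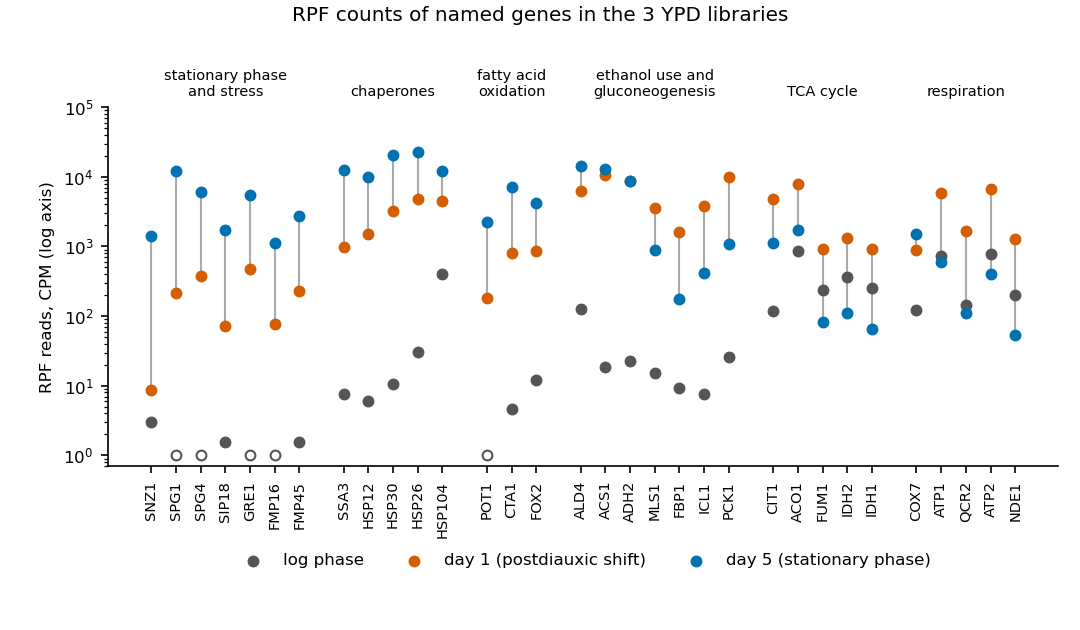
RPF counts of named genes in CPM (log axis) in the log phase, day 1 and day 5 libraries, 1 library each, with a grey line from day 1 to day 5; open circles at 1 CPM mark genes with no read. SPG1 went from 217 to 12038 CPM and SSA3 from 981 to 12498, while PCK1 went from 10049 to 1085 and NDE1 from 1271 to 53.1.

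The stress response element (STRE), AGGGG on either strand, is the site bound by Msn2 and Msn4, the activators of general stress genes. A window of 400 bases that began 500 bases before the start codon was searched on both strands in the R64 genome of RefSeq, for 6000 genes, and it can overlap a neighbouring gene. An STRE was found in 29.2% of all windows, in 31.8% of genes compared, in 39.5% of genes at least 2-fold higher and in 50% of genes at least 4-fold higher. Among genes at least 2-fold lower it was 28.8%. A pair or more of matches was found in 6.18% of all windows and in 21.2% of genes at least 4-fold higher. The postdiauxic shift element (PDS), AGGGAT, which cannot match the same letters as an STRE, was found in 12.8% of all windows, 16.4% of genes at least 2-fold higher and 22.4% of genes at least 4-fold higher. Among genes at least 2-fold lower the PDS share was 12.9%, and among those at least 4-fold lower 14.3%. A match describes the letters and no binding was measured. The sites nearest to the start codon are shown for the largest differences that had one, on the coding strand of the gene, with the STRE in capitals (CCCCT is the element on the opposite strand).
SIP18, chrXIII:610639-610659: tttcggtaCCCCTttaagaca
FMP16, chrIV:588568-588588: tgtatcaaCCCCTtcttcctg
YHR138C, chrVIII:377809-377829: gtggataaAGGGGtggggggc
NCE102, chrXVI:829587-829607: aaatcataCCCCTataaattc
FMP45, chrIV:62086-62106: agggaaagAGGGGagtggtaa
These were 5 of the 12 largest differences upward. The windows of SNZ1, SPG1, SPG4, SSA3, POT1, GRE1 and BIG1 had no match. Of the 12 largest differences downward, 7 had a match, among them ATP2 and FUM1.

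Heat shock proteins and chaperones held 3.91% of all reads on day 1 and 10.9% on day 5, against 2.63% in log phase. Of 32 compared, 14 were at least 2-fold higher and 0 lower (median 0.79 against -0.51). SSA3, an Hsp70 gene used outside log phase, had 7.66, 981 and 12498 CPM, a ratio of 12.7 (11.6 to 14). HSP12, a small membrane-stabilizing protein, had 6.13, 1495 and 10068 CPM, a ratio of 6.73 (6.20 to 7.32). HSP30, a regulator of the plasma membrane proton pump, had 10.7, 3273 and 20484 CPM, a ratio of 6.26 (5.92 to 6.62). HSP26, a small heat shock protein, had 30.7, 4859 and 22867 CPM, a ratio of 4.71 (4.48 to 4.94). HSP104, the disaggregase, had 405, 4556 and 11902 CPM, a ratio of 2.61 (2.46 to 2.77). BTN2, which sorts misfolded proteins, had 25, 100 and 230 reads. These 6 members of the list were highest on day 5, and the others were mixed. HSP82, the inducible Hsp90 gene, had 926, 3063 and 4884 CPM, and HSP10, the partner of HSP60, had 314, 125 and 490 CPM. HSC82, the constitutive Hsp90 gene, had 5028, 3073 and 2318 CPM, and HSP60, the mitochondrial chaperonin, had 1240, 2782 and 1622 CPM. SSA1, a growth Hsp70 gene with a near-identical copy in SSA2, had 1243, 2183 and 1657 CPM.

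**Figure D2:**
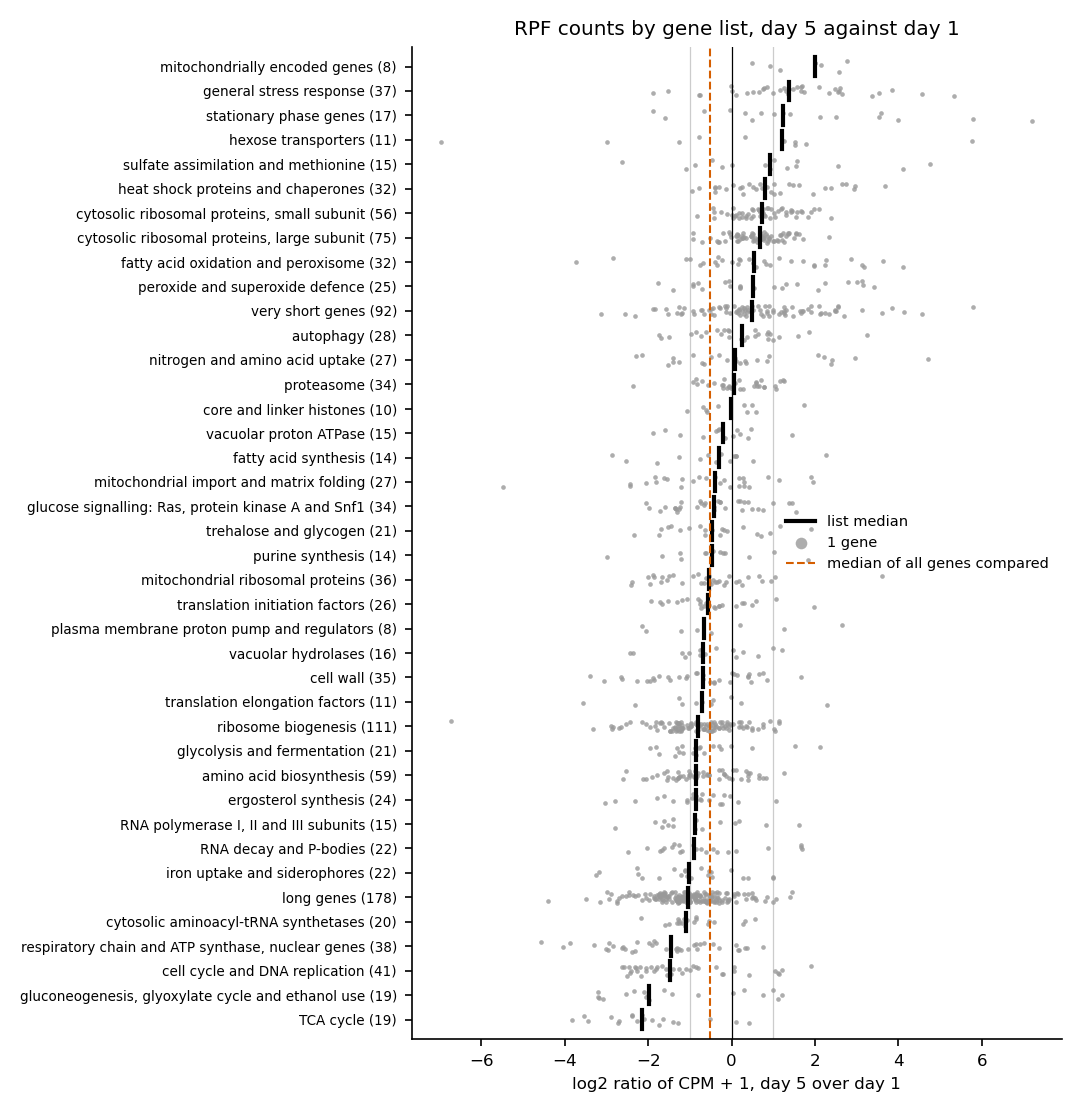
Log2 ratio of CPM with 1 CPM added, day 5 over day 1, for the genes compared of each list with at least 8 of them (number in brackets); each grey point is 1 gene, black bars are list medians and the dashed line is the median of all genes, -0.51. Mitochondrially encoded genes had the highest median, 2.00, and the TCA cycle the lowest, -2.15. Medians of the vacuolar proton ATPase, fatty acid synthesis, nitrogen uptake, histones, glucose signalling and mitochondrial import lists change sign with scaling or CPM filter. The setting with no filter was left out of this check. There, 13 of 44 list medians were above 0, against 17 of 43 in the main setting.

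Genes for growth on ethanol and acetate were split. Of 19, 12 were at least 2-fold lower and 2 higher, with a median of -1.97, yet as a group they held 7.15% of all reads on day 1 and 6.10% on day 5, against 0.334% in log phase. PCK1, which commits carbon to gluconeogenesis, had 26.1, 10049 and 1085 CPM, 9.26-fold lower on day 5 (7.99 to 10.8). ICL1, the isocitrate lyase of the glyoxylate cycle, had 7.66, 3858 and 419 CPM, 9.21-fold lower (7.27 to 11.8). FBP1, fructose-1,6-bisphosphatase, had 9.20, 1601 and 177 CPM, 9.05-fold lower (6.29 to 13.5). SFC1, a mitochondrial succinate and fumarate carrier, had 0, 641 and 22 reads. The genes of the first steps from ethanol to acetyl-CoA did not share this. ADH2, the alcohol dehydrogenase that uses ethanol, had 8599 and 8800 CPM on days 1 and 5, a ratio of 1.02 (0.965 to 1.08). ACS1, acetyl-CoA synthetase, had 10450 and 12764 CPM, a ratio of 1.22 (1.16 to 1.28). ALD4, mitochondrial aldehyde dehydrogenase, had 6194 and 14315 CPM, a ratio of 2.31 (2.19 to 2.43). The acetate transporter ADY2 had 5576 and 11047 CPM and the lactate transporter JEN1 had 2648 and 5757 CPM. CAT8, an activator of these genes kept in the glucose signalling list, had 4, 444 and 262 reads, or 771 and 1545 CPM on days 1 and 5.

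The carbon source response element (CSRE), the letters CC and CCG with 6 bases of any kind between them, searched on both strands, is bound by Cat8 and Sip4. It was found in 19.3% of all windows, 23.9% of genes at least 2-fold higher, 23.7% of genes at least 4-fold higher and 21.3% of genes at least 2-fold lower. Of 8 genes of ethanol and acetate use examined, 7 had a match. Sites are shown, with the CSRE in capitals, for 3 genes at least 2-fold lower (PCK1, ICL1, FBP1) and 2 that passed 2-fold in neither direction (ACS1, ADY2). JEN1, at 2.17-fold higher, was the gene with no match.
PCK1, chrXI:630782-630808: tggataggCGGATAAAGGGcccaaaca
ICL1, chrV:287294-287320: ccaggtttCCATTCATCCGagcgatca
FBP1, chrXII:875206-875232: cggtcgtgCGGACACCCGGagttatgc
ACS1, chrI:45225-45251: aattgccgCCGAGCCTCCGatgccatt
ADY2, chrIII:133439-133465: cagatttgCGGTTGGGCGGctatttcg
In all, 8 motifs were searched, of which the other 5 follow. The heat shock element was found in 1.37% of all windows, 2.29% of genes at least 2-fold higher and 1.28% of genes at least 4-fold higher. The other 4 are given for all windows and for genes at least 2-fold higher. The shares were 1.42% and 1.46% for the proteasome element GGTGGCAAA, 23.5% and 22.9% for the ribosome biogenesis element GATGAG, 55.2% and 53.4% for CCAAT, bound by the Hap complex, and 3.5% and 3.95% for TGACTCA, bound by Gcn4. CCAAT was found in 55.4% of genes at least 2-fold lower, near the share of all windows, and in 61.0% of genes at least 4-fold lower.

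The TCA cycle was the lowest list. Of 19 genes, 16 were at least 2-fold lower and 0 higher, with a median of -2.15, and its share of reads went from 3.87% on day 1 to 0.955% on day 5, against 0.387% in log phase. IDH1 and IDH2 encode the subunits of isocitrate dehydrogenase. IDH1 had 251, 926 and 64.9 CPM, 14.3-fold lower on day 5 than on day 1 (7.91 to 28.8). IDH2 had 359, 1306 and 112 CPM, 11.7-fold lower (7.41 to 19.5), and FUM1, fumarase, had 239, 913 and 82.6 CPM. These 3 genes were below their log phase level on day 5. ACO1, aconitase, had 848, 7770 and 1746 CPM, 4.45-fold lower (3.96 to 5.02). CIT1, the mitochondrial citrate synthase, had 120, 4843 and 1138 CPM, and CIT2, its peroxisomal form, had 87.4, 7612 and 1451 CPM. CIT3, a minor mitochondrial citrate synthase, was not lower, with 1, 368 and 145 reads and a ratio of 1.34 (1.10 to 1.63).

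Nuclear genes of the respiratory chain and ATP synthase had 25 of 38 members at least 2-fold lower and 0 higher, with a median of -1.45. NDE1, an NADH dehydrogenase of the inner membrane, had 201, 1271 and 53.1 CPM, 23.9-fold lower on day 5 (12.5 to 52.6). ATP2, the β subunit of ATP synthase, had 770, 6755 and 407 CPM, 16.6-fold lower (13.1 to 21.4), and ATP1, the α subunit, had 717, 5853 and 596 CPM. QCR2, a core subunit of complex III, had 144, 1650 and 112 CPM, 14.7-fold lower (9.37 to 24.6). Outside this list, POR1, the porin of the outer membrane, had 1029, 9392 and 2259 CPM. COX7, a small subunit of complex IV, had 121, 899 and 1528 CPM, and the small complex III subunit QCR8 had 46, 236 and 79 reads, a ratio of 1.14 (0.870 to 1.47). HAP4, the activator of respiratory genes and no member of the list, had 9, 377 and 28 reads. Together with the TCA cycle, the respiratory list held 6 of the 12 largest differences downward.

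The 8 genes listed as encoded in the mitochondrion itself stood the other way as a list, which holds overlapping intron-encoded frames. Of these, 6 were at least 2-fold higher and 0 lower, with a median of 2.00, and their share of all reads went from 0.0313% in log phase to 0.292% on day 1 and 1.12% on day 5. COX2, a subunit of complex IV, had 38, 601 and 334 reads, or 58.3, 1044 and 1970 CPM, a ratio of 1.89 (1.65 to 2.16). OLI1, a subunit of ATP synthase, had 12, 116 and 48 reads, a ratio of 1.41 (0.982 to 1.98). COX2 and OLI1 were the 2 of the list that passed 2-fold in neither direction. AI5_ALPHA, an intron-encoded endonuclease whose frame includes exons of COX1, had 178, 1127 and 6700 CPM, a ratio of 5.95 (5.39 to 6.56). BI4, an intron-encoded maturase whose frame includes exons of COB, had 14, 141 and 167 reads. BI2, also of the list, begins at the same base as BI4. Reads of the intron-encoded frames cannot be told apart from those of the genes they overlap, so the 8 are not independent.

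Other genes among the 12 largest differences downward were of mixed function. URA2, the first enzyme of pyrimidine synthesis, had 1668, 13011 and 613 CPM, 21.2-fold lower (17.5 to 26.0). ACH1, which moves CoA between acetate and succinate, had 47.5, 3471 and 283 CPM. CRC1, whose values are given with the fatty acid oxidation list, was among them too. DPH1, a gene of diphthamide synthesis, had 65, 319 and 3 reads, 31.3-fold lower (10.6 to 153), and EMI2, a glucokinase-like protein, had 29, 203 and 3 reads.

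Of 32 genes of fatty acid oxidation and the peroxisome compared, 12 were at least 2-fold higher, 4 lower and 16 neither (median 0.55), and their share of reads went from 0.703% to 2.32%. POT1, the thiolase, had 0, 106 and 386 reads, a ratio of 12.4 (9.95 to 15.5). CTA1, the peroxisomal catalase, had 3, 463 and 1192 reads, or 804 and 7031 CPM on days 1 and 5, a ratio of 8.74 (7.85 to 9.76). FOX2, the multifunctional enzyme, had 12.3, 868 and 4158 CPM, and DCI1, an isomerase, had 0, 15 and 79 reads. CRC1, the mitochondrial acyl-carnitine carrier, was the lowest of the list, with 2, 367 and 8 reads, 13.5-fold lower (6.78 to 31.5). FAA1, which activates fatty acids and was in the fatty acid synthesis list, had 265, 795 and 3816 CPM.

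Of 25 genes of peroxide and superoxide defence, 11 were at least 2-fold higher and 2 lower (median 0.51). AHP1, a thiol peroxidase, had 3549, 509 and 4494 CPM, a ratio of 8.83 (7.71 to 10.1), so its day 5 level was again near that of log phase. TRX2, a cytosolic thioredoxin, had 454, 368 and 2572 CPM. TSA1, the main peroxiredoxin, had 2807, 1278 and 1817 CPM.

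Autophagy genes had 4 of 28 members at least 2-fold higher and 3 lower, against 12.5% and 34.6% of all genes. The share higher was thus near that of all genes, with a median of 0.25 against -0.51. ATG8, the ubiquitin-like protein of the autophagosome membrane, had 6, 133 and 374 reads, a ratio of 9.55 (7.82 to 11.7), and ATG19, a cargo receptor, had 20, 115 and 10 reads. The vacuolar protease PEP4 had 570, 3681 and 2165 CPM, and PRB1 had 144, 2690 and 4188 CPM. Of 34 proteasome genes 5 were higher and 1 lower (median 0.06), with the share higher again near that of all genes. RPN4, the activator of proteasome genes, had 76.6, 721 and 1728 CPM, and PRE6, a core subunit, had 156 and 29.5 CPM on days 1 and 5.

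Genes of glycolysis and fermentation held 15.4% of reads in log phase, 6.68% on day 1 and 7.39% on day 5. PDC1 alone gave 4537 of the list's 38498 reads on day 1 and 5849 of 12522 on day 5. Without PDC1 the list's share was lower on day 5 than on day 1. PDC1, the main isozyme, had 33649, 7878 and 34498 CPM, a ratio of 4.38 (4.21 to 4.55), the highest count of all genes on day 5. PDC5, its near copy, had 85, 58 and 49 reads, a ratio of 2.87 (1.92 to 4.27). Of the list's 21 genes 8 were at least 2-fold lower and 2, these 2, higher, with a median of -0.84. TDH3, the main glyceraldehyde-3-phosphate dehydrogenase, had 21413, 8128 and 11360 CPM. CDC19, pyruvate kinase, had 20446, 6307 and 5291 CPM, and PGK1, phosphoglycerate kinase, had 11684, 6777 and 3686 CPM. PGI1, the isomerase, had 4776, 3810 and 1528 CPM, and PFK1, a phosphofructokinase subunit, had 2120, 1884 and 790 CPM. ENO1, the enolase isozyme of gluconeogenic growth, had 432, 4700 and 1339 CPM, and TDH1 had 69.0, 1915 and 495 CPM.

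Of 11 hexose transporter genes compared, 6 were at least 2-fold higher and 3 lower. HXT5, the transporter of slow growth, had 9.20, 2422 and 5757 CPM, a ratio of 2.38 (2.19 to 2.58). HXT3 had 528, 46 and 39 reads, a ratio of 2.88 (1.83 to 4.51). HXT2 had 584, 28 and 29 reads, a ratio of 3.52 (2.02 to 6.14). HXT6 (0, 71 and 0 reads) and HXT7 (2, 31 and 1) are near-identical copies, so their reads may not be assigned with certainty. GAL2, the galactose transporter, had 0, 1 and 25 reads. Of 21 genes of trehalose and glycogen 2 were higher and 7 lower, with a median of -0.46. Both the share lower and the median were near those of all genes, 34.6% and -0.51. TPS1 and TPS2 make trehalose. TPS1 had 156, 946 and 784 CPM, TPS2 had 66, 707 and 193 reads, and TSL1, a regulatory subunit, had 44.5, 2063 and 873 CPM.

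Cytosolic ribosomal proteins held a low share of reads on both days, higher on day 5 than on day 1. The large subunit held 11.3% of reads in log phase, 1.28% (95% exact interval 1.25 to 1.30) on day 1 and 1.56% (1.5 to 1.62) on day 5. The small subunit held 8.46%, 0.914% (0.889 to 0.938) and 1.28% (1.23 to 1.34). These shares include genes with a snoRNA in an intron, which need the caution given below. RPL7A gave 1355 of 7343 large subunit reads on day 1 and 209 of 2643 on day 5. ASC1 gave 1508 of 5261 small subunit reads on day 1 and 251 of 2174 on day 5. Of 75 genes of the large subunit 18 were at least 2-fold higher and 0 lower (median 0.67), and of 56 of the small subunit 19 and 0 (median 0.73). RPS2 had 4185, 439 and 838 CPM in log phase, on day 1 and on day 5. RPS11A had 840, 62 and 78 reads, a ratio of 4.27 (3.02 to 6.06). RPL10 had 4836, 830 and 1144 CPM and RPP0, of the ribosomal stalk, had 5385, 1103 and 1085 CPM. RPL3 had 5819, 1077 and 873 CPM. Many of these genes are in pairs of near-identical copies, between which reads may not be assigned with certainty.

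Genes that build ribosomes stood lower than the ribosomal proteins. Of 111 ribosome biogenesis genes 46 were at least 2-fold lower and 4 higher, against 34.6% and 12.5% of all genes. Their median was -0.80, against -0.51 for all genes, and their share of reads was 2.36%, 1.02% and 0.643%. NOP56, of the box C/D particle, had 877, 314 and 118 CPM, and UTP8, needed for pre-rRNA synthesis, had 156, 60 and 0 reads. Of 20 cytosolic aminoacyl-tRNA synthetases 11 were lower and 0 higher (median -1.09), with 642 and 142 CPM on days 1 and 5 for DPS1, which charges aspartate. Initiation factors had 7 of 26 lower and 2 higher, with a median of -0.57, near that of all genes. PRT1, an eIF3 subunit, had 613, 229 and 59.0 CPM. SUI1, eIF1, had 317, 62.5 and 248 CPM, a ratio of 3.96 (2.48 to 6.37). PAB1, the poly(A)-binding protein, had 1697, 800 and 678 CPM, a ratio of 0.847 (0.685 to 1.04), and the helicase DED1 had 1030, 575 and 802 CPM. Of the paralogs for elongation factor 3, YEF3 had 11733, 3282 and 2430 CPM, and HEF3, its little used copy, had 6.13, 757 and 3710 CPM, a ratio of 4.90 (4.33 to 5.55). HEF3 was the higher of this pair on day 5 and the lower on day 1 and in log phase.

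Genes with a snoRNA in an intron need a caution, since reads were counted per gene and a snoRNA's fragments may fall in its host. The 9 such genes held 1.51% of reads in log phase, 4.17% on day 1 and 0.852% on day 5, and 4 of them were at least 2-fold lower. TEF4, an elongation factor gene that hosts SNR38, had 2127, 11814 and 294 reads and was the gene with the most reads on day 1. It was 11.8-fold lower on day 5 (10.5 to 13.3). IMD4, a GTP synthesis gene that hosts SNR54, had 661, 5961 and 221 reads, and EFB1, an elongation factor gene that hosts SNR18, had 2092, 2355 and 139. RPL7A, which hosts SNR39, had 705, 1355 and 209 reads and ASC1, which hosts SNR24, had 3709, 1508 and 251. The part of snoRNA fragments in these counts was not tested.

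Genes of division were mostly lower, and lists of cell wall, iron and sterol genes are read here against the 34.6% of all genes that were at least 2-fold lower. Of 41 genes of the cell cycle and DNA replication 26 were at least 2-fold lower and 5 higher, with a median of -1.48. MCM4, a subunit of the replicative helicase, had 46, 131 and 7 reads, and RNR1, of the enzyme that makes deoxynucleotides, had 563, 314 and 31. CLB2 was an exception, with 152, 849 and 1958 CPM, a ratio of 2.31 (2.00 to 2.66). Of 35 cell wall genes 15 were lower and 1 higher, and ergosterol synthesis had 8 of 24 lower and 1 higher, a share near that of all genes. HSP150, a secreted wall protein, had 1381, 10031 and 950 CPM, 10.6-fold lower (9.03 to 12.4), while SED1 had 1341, 8451 and 5934 CPM and TIP1 had 754, 7942 and 10970 CPM. Iron uptake had 11 of 22 genes lower and 0 higher, with 239, 962 and 201 CPM for the wall mannoprotein gene FIT2. ERG1, squalene epoxidase of ergosterol synthesis, had 435, 281 and 10 reads. The proton pump gene PMA1 had 11527, 5902 and 3338 CPM.

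Nitrogen genes went both ways, with 6 of 27 higher and 6 lower. For proline, the permease gene PUT4 had 7.66, 3634 and 743 CPM and the oxidase gene PUT1 had 3, 322 and 733 reads, a ratio of 7.73 (6.77 to 8.84). GDH2, which releases ammonia from glutamate, had 67.4, 6631 and 2489 CPM. GAP1, the general amino acid permease, had 10, 134 and 165 reads, a ratio of 4.18 (3.31 to 5.29). Sulfate and methionine genes had 7 of 15 higher and 2 lower (median 0.93), with 6, 4 and 36 reads for MET14. MET6, methionine synthase, had 1239, 1337 and 2690 CPM, a ratio of 2.01 (1.79 to 2.26).

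The ratio went with the length of the coding sequence. The median coding length was 894 nt for genes at least 2-fold higher, 1728 nt for genes at least 2-fold lower and 1455 nt for all genes compared. The median log2 ratio was 0.48 for 92 genes under 300 nt and 0.59 for 366 genes of 300 to 600 nt. It was -0.23 from 600 to 1200 nt, -0.65 up to 2000 nt, -0.81 up to 3000 nt, -1.01 up to 4000 nt and -1.04 for 178 genes above that. Without ribosomal proteins the genes under 600 nt still stood above 0, at 0.50 and 0.48. URA2 was the lowest of the long genes and SPG1 the highest of the short ones. The day 5 library was also the shallowest, and the part of fragment quality or depth in this relation was not tested.

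**Figure D3:**
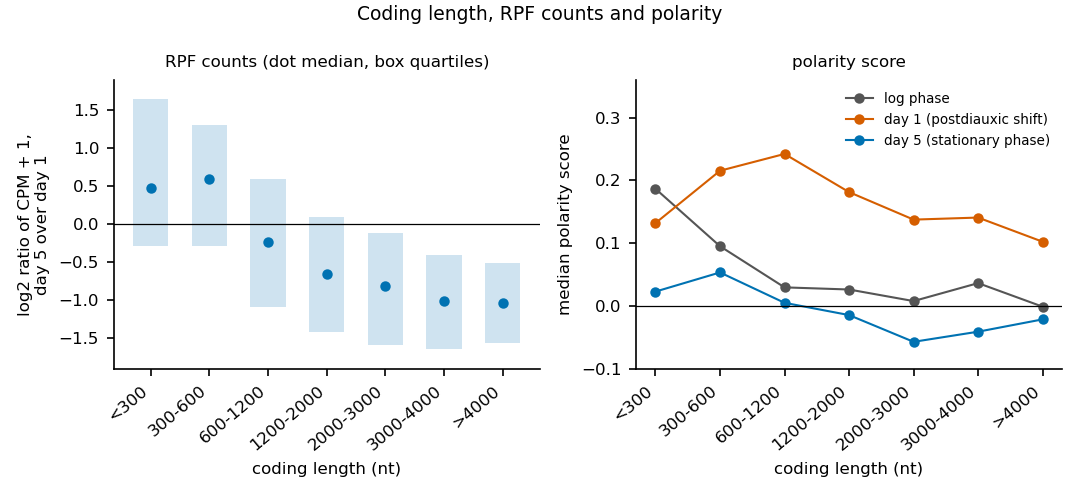
Left, median (dot) and quartiles (box) of the log2 ratio of CPM with 1 CPM added, day 5 over day 1, by coding length in nt; right, median polarity score of genes with over 25 reads on days 1 and 5, in the 3 libraries. The median ratio was 0.48 under 300 nt and -1.04 above 4000 nt, and day 1 had the highest median score in every length class from 300 nt on.

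Polarity was lower on day 5 for most genes compared. More than 25 reads were held by 2983 genes on day 1 but 953 on day 5. The day 5 level thus mainly set which genes were compared. Of 922 genes with more than 25 reads in both libraries, 806 (87.4%) had a lower score on day 5, 416 (45.1%) by at least 0.2, and 14 (1.52%) had a score higher by at least 0.2. The median score was 0.176 on day 1 and -0.0102 on day 5, and 90% of scores were positive on day 1 against 47.1% on day 5. In the 680 genes that also had more than 25 reads in log phase the medians were 0.0258 in log phase, 0.180 on day 1 and -0.00362 on day 5. The log phase library too was made without cycloheximide. For log phase cells collected so, the paper reports fewer reads near the start codon and proposes ribosome runoff during harvest. The part of this in the log phase scores was not tested. From day 1 to day 5, 405 genes changed from a positive to a negative score and 9 the other way. The median difference was -0.183, and the standard deviation that counting alone would give a difference, for reads spread evenly, had a median of 0.0927. Between replicate libraries of the time course 3.35% to 4.52% of genes differed by at least 0.2 in either direction, against 46.6% here. With each library centred on its median, 70 genes were lower by 0.2 and 98 higher.

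**Figure D4:**
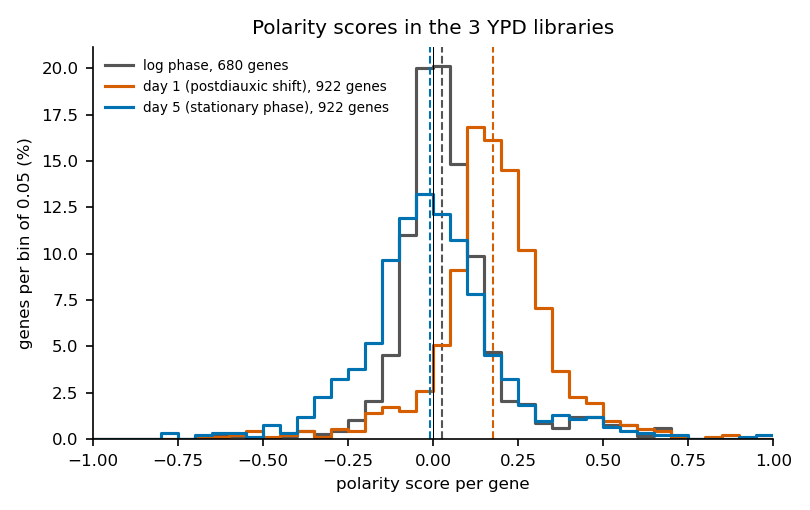
Share of genes (%) in bins of 0.05 of the polarity score, for genes with over 25 reads on days 1 and 5 (922 genes; 680 of them also with over 25 reads in log phase); dashed lines are medians. The day 1 distribution lies to the right, with a median of 0.176, and the day 5 distribution around 0, with a median of -0.0102 and a longer negative tail.

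Among the 922 genes the shift did not follow the counts. They held 232 of the 488 genes at least 2-fold higher and 136 of the 1353 at least 2-fold lower. The median difference was -0.183 for 232 genes at least 2-fold higher on day 5, -0.160 for 136 genes at least 2-fold lower and -0.188 for 554 others. PDC1, the gene with the most reads, had scores of 0.00977, 0.172 and -0.00146 in log phase, on day 1 and on day 5. CDC19 had 0.00613, 0.242 and 0.0607, PGK1 had -0.0262, 0.176 and 0.0345, and PAB1 had -0.0702, 0.148 and -0.0713. PFK1 had 0.0206, 0.162 and 0.00365, and PGI1 had 0.0703, 0.276 and 0.0543. These glycolytic and translation genes all had their highest score on day 1. HSP26 had 0.164 on day 1 and -0.0443 on day 5, HSP30 had 0.133 and -0.0676, and HSP104 had 0.106 and -0.106, so 3 genes with a larger share of reads on day 5 had lower scores as well.

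The list medians were all below 0 where at least 5 genes were compared. Autophagy had a median difference of -0.277, with 9 of 12 genes lower by 0.2, the TCA cycle -0.257 with 6 of 11, and the stationary phase genes -0.252 with 8 of 12. The proteasome had -0.229 with 14 of 23, glycolysis -0.203 with 11 of 19 and chaperones -0.185 with 13 of 29. Over all 922 genes the median was -0.183 and 416 (45.1%) were lower by 0.2. The chaperones stood at that level, and the other lists are small. The smallest differences were those of mitochondrially encoded genes, -0.0219 with 0 of 6, cell cycle genes, -0.0539 with 1 of 6, and the small ribosomal subunit, -0.0710 with 6 of 29. Ribosomal protein genes had high scores in every library. The large subunit had medians of 0.283, 0.401 and 0.240 and the small subunit 0.279, 0.344 and 0.230 in log phase, on day 1 and on day 5, and many of them hold an intron near the start that the scored span includes. Genes of 600 to 1200 nt had the largest median difference, -0.228, and genes under 300 nt the smallest, -0.0876.

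Among 258 genes with at least 100 reads in both libraries, 116 were lower by 0.2 and 1 was higher. The largest difference was that of MPT5, an mRNA-binding Puf protein, with scores of 0.0976, 0.167 and -0.635. SAC6, the actin bundling protein fimbrin, had 0.0854, 0.141 and -0.479, and ECM33, a wall protein, had 0.129, 0.333 and -0.245. OM14, of the mitochondrial outer membrane, had 0.322, 0.163 and -0.389, and UBC4, a ubiquitin-conjugating enzyme, had 0.204, 0.207 and -0.334. All 5 have 2 coding exons, and 9.22% of the 922 genes have 2 or more. Over all 85 such genes the median difference was -0.116, against -0.185 for 837 genes with 1 coding exon. GTT1, a glutathione transferase with 1 exon, had 0.0673, 0.332 and -0.165, OM45, also of the outer membrane, had 0.489, 0.211 and -0.265, and TSL1 had -0.187, 0.170 and -0.291.

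The gene that was higher by 0.2 was EFB1, which hosts a snoRNA, with scores of 0.243, -0.443 and -0.207. The other genes with the highest differences moved little. UTH1, a mitochondrial and wall protein, had 0.292, 0.121 and 0.237, and URB1, a ribosome biogenesis factor, had -0.0894, 0.0297 and 0.127. SPG1 had 0.294 on day 1 and 0.356 on day 5, HSP12 had -0.00987 and 0.0450, and BI4 had 0.424 and 0.560. The snoRNA hosts TEF4, with -0.0630 and -0.00619, and RPS22B, with -0.0745 and -0.00336, completed the 8 highest. Some genes kept extreme scores on both days, with 51 beyond 0.5 on either side in at least 1 library and 18 in both, and BIG1, a gene of cell wall glucan synthesis, had -0.598 and -0.770 from 77 and 254 reads.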

How the data were processed

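RPF libraries of BY4741 grown in YPD for 1 and 5 days, with a log phase library as reference, were analysed. The authors trimmed reads with Cutadapt, dropped those under 17 nt, discarded reads that matched noncoding RNA in bowtie, filtered the others by quality, aligned them to R64-1-1, collapsed PCR copies with molecular identifiers and ran htseq-count. For these programs no version is stated here. The deposited sheets hold raw read counts per gene and the authors' polarity score per gene, neither normalized between libraries. The deposited length is the gene span with introns, so coding lengths came from RefSeq's R64 annotation, which 5450 of 5452 listed genes matched. Unlisted genes were set to 0 reads, and 0 columns of per-sample values were left unmapped.

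Counts were scaled to CPM by the sum of gene counts (pseudocount 1 CPM, mean of at least 20 CPM), since no spike-in was used. With a filter at 20 CPM, a gene with few reads passes mainly through the library where it is high. Ratios carry 95% conditional Clopper-Pearson intervals. These were run on simulated counts with counting error only, a check of the calculation that cannot cover spread between cultures. Shares carry exact binomial intervals. Polarity differences were taken over genes with more than 25 reads in both libraries. TMM used edgeR 4.0.16 in R 4.3.3; the other steps ran in Python 3.11.15 (scipy 1.17.1, numpy 2.4.6, matplotlib 3.10.9, pandas 2.3.3). Alternatives were other library sizes, pseudocounts and filters, and for polarity other read minimums and centring.

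Named genes are those the paper names, the 12 largest differences in each direction with at least 200 reads, the 8 largest polarity differences in each direction with at least 100 reads in both libraries, the 10 genes with the most reads in each library, and for each of 44 lists up to 4 members with the most CPM and the extreme one in each direction. BTN2, HSC82, HSP82, SSA1, ALD3, RIM15, JEN1, ICL1, FBP1, SFC1, ENO1, PDC5, QCR8, HXT7, GAL2, NOP56, MCM4, CLN1, GAP1, MET14 and HAP4 were added after their values were seen. The lists and members were chosen with earlier results of these data known. The rule names more genes than the text describes.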

Additional observations from a re-analysis of the deposited data

How the results depend on the processing

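No paired analysis was possible because each condition had 1 library. Of 3915 genes, 488 were at least 2-fold higher and 1353 lower. These became 783 and 847 of 3884 with TMM scaling, 797 and 816 of 3883 with median of ratios scaling, and 259 and 450 of 1566 at a mean of at least 100 CPM (chosen after seeing the data). The lower genes were 821 of 2618 at 50 CPM and 2118 of 5420 with no filter. Other alternatives stayed within 1.5 times. The list median of meiosis and sporulation turned from 1.68 to -1.45 with no filter. Only 3 of its 9 listed genes passed the filter of 20 CPM, and all 3 were higher on day 5. The cause was not tested further. For polarity, 905 genes were lower by 0.2 and 53 higher among 1920 with over 10 reads, and 113 and 1 among 255 with over 100 reads. Centred on library medians these were 70 and 98, with a median difference of 0.00275. Within scores of -0.5 to 0.5 (also added later), 9 genes were higher. The 3.4-fold lower depth of day 5 limits all low genes.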
